A study of Mus musculus with 96 samples.

Results

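Retinoid metabolism in mouse epidermis was followed through 8 genes among the 22497 in the deposited tables. They were Stra6, Rdh10, Dhrs9, Rdh12, Cyp26b1, Crabp2, Rarg and Rxra, chosen by name and matched by symbol in the tables of all 4 genotypes. The choice was made knowing that Rdh12 loses its rhythm in EpiRE, 1 of the genotypes, so that loss is described here and supports nothing. Retinol (vitamin A) is oxidised by dehydrogenases to retinaldehyde and then by retinaldehyde dehydrogenases to retinoic acid. Retinoic acid binds receptors of the RAR family, which act on DNA as partners of RXR receptors, and CYP26 enzymes break it down. In the epidermis this pathway is known as a regulator of keratinocyte growth and terminal differentiation.

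Messenger RNA of dorsal epidermis was sequenced in 96 libraries, from female C57BL/6 mice of 8 weeks, after 156 to 176 h of constant darkness. Each of 4 genotypes was sampled at 6 circadian times (CT, in h), with 4 libraries per time and 24 per genotype. WT mice had intact Arntl (Arntl wt/wt) and both Cre drivers, K14Cre and Syt10-Cre. The other genotypes were homozygous for a stopped Arntl allele (stopFL/stopFL) that Cre can restore. RERE mice carried K14Cre and Syt10-Cre, EpiRE mice carried K14Cre alone, and BRE mice carried Syt10-Cre alone. Arntl encodes BMAL1, an activator of the molecular clock. K14Cre is driven by the promoter of a basal keratinocyte keratin, and Syt10-Cre is known for its activity in the brain's central clock. The epidermis was therefore meant to hold a restored clock gene in RERE and EpiRE and not in BRE. The design asks which rhythms need the clock of the tissue, that of the brain, or both.

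Recovered library sizes ran from 11.1 to 19.9 M reads with a median of 15.2 M. Summed over the gene, Arntl ranged from 5.69 to 31.4 RPKM in WT and from 12.8 to 20.7 RPKM in BRE, so its level did not separate BRE from WT and does not check the stopped allele. The basal keratinocyte markers Krt5 and Krt14 were abundant in every genotype, with geometric means of 6110 and 2830 RPKM in WT. Summed levels of 3 endothelial markers stayed at or below 0.309 RPKM in WT and 0.295 RPKM in BRE. In 6 libraries the deviation from the group mean over all tested genes exceeded 1.3 times the median library. They were replicate 1 of RERE CT 0, replicate 2 of RERE CT 16, replicate 1 of EpiRE CT 0, replicate 1 of EpiRE CT 8, replicate 3 of BRE CT 4 and replicate 1 of BRE CT 12. Calls lost without them are given beside each result. The labels give 4 mice per time, so the p-values measure the spread between mice.

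Per unit of transcript length, the receptors were the most abundant members and the retinol transporter the least. In WT, mean levels over 24 libraries were 177 RPKM for Rarg, 105 RPKM for Rxra, 42.2 RPKM for Crabp2, 21.4 RPKM for Rdh12 and 4.64 RPKM for Rdh10. They were 0.824 RPKM for Dhrs9, 0.771 RPKM for Cyp26b1 and 0.287 RPKM for Stra6. On the log2 scale, Rarg (7.46, SD 0.12) and Rxra (6.72, SD 0.07) differed beyond their spread in WT, as did Crabp2 (5.36, SD 0.36), Rdh12 (4.39, SD 0.31) and Rdh10 (2.2, SD 0.2). Dhrs9 (−0.51, SD 0.91) and Cyp26b1 (−0.46, SD 0.50) did not differ beyond theirs. The order from Rarg down to Rdh10 was the same in RERE, EpiRE and BRE. These 5 genes passed the minimum mean of 1 RPKM (0 on the log2 scale) and were tested with all genes above it. The 3 scarce genes did not, and were read from fits with no minimum level. The reads behind a single value ran from 6096 to 15359 for Rarg and from 636 to 2012 for Rdh12, but from 4 to 98 for Dhrs9 and from 1 to 63 for Stra6.

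Rdh12 (ENSMUSG00000021123, chromosome 12, 79208914 to 79222665, plus strand, mm10) encodes a dehydrogenase that interconverts retinol and retinaldehyde. Its daily course was nearly the same in WT and RERE, and in EpiRE and BRE it was close to flat at a different height in each. The 4 WT libraries read 4.71, 4.84, 4.53 and 4.78 log2 RPKM at CT 0, and 3.93, 4.18, 3.91 and 3.94 at CT 12. In RERE they read 4.97, 4.96, 4.93 and 4.91 at CT 0, and 4.19, 4.01, 4.01 and 4.30 at CT 12. In both genotypes every library at CT 0 lay above every library at CT 8 and CT 12. The EpiRE libraries read 4.71, 4.55, 4.62 and 4.49 at CT 0, and 4.45, 4.65, 4.40 and 4.60 at CT 12. In BRE they read 4.84, 4.82, 4.87 and 5.08 at CT 0, and 4.94, 4.77, 4.77 and 4.86 at CT 12. The times overlapped within EpiRE and within BRE. Between the highest and the lowest time the group means differed 1.65-fold in WT, 1.78-fold in RERE, 1.07-fold in EpiRE and 1.08-fold in BRE.

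**Figure D1:**
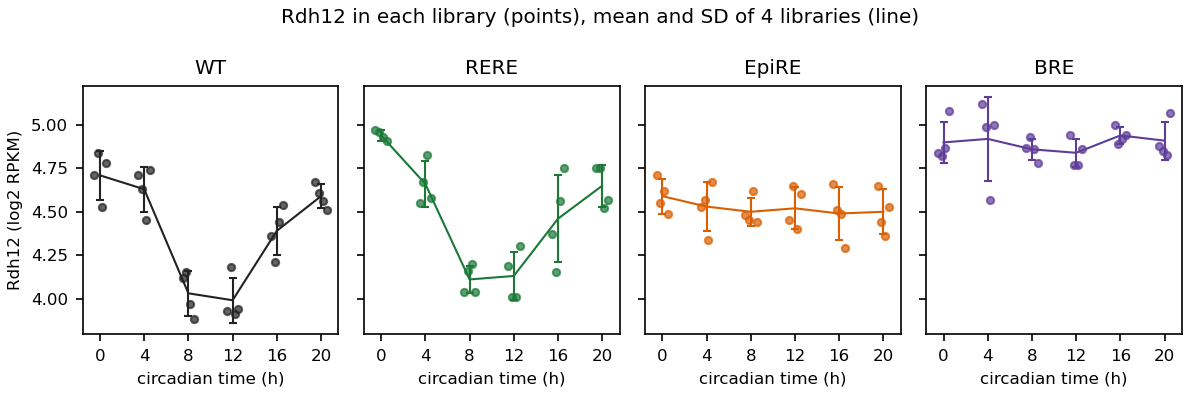
Rdh12 in log2 RPKM against circadian time in h, 1 panel per genotype. Points are single libraries, and the line with bars is the mean and SD of 4. WT and RERE fall to about 4 at CT 8 and CT 12, EpiRE stays between 4.29 and 4.71, and BRE lies between 4.57 and 5.12.

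Rhythm was tested by fitting a 24 h cosine wave in limma with p-values adjusted by Benjamini-Hochberg over all genes tested, and called at an adjusted p under 0.05. The amplitude is the height of the wave above its mean. For Rdh12 it was 0.39 ± 0.04 (SE, log2) with a peak at CT 23.1 ± 0.42 h in WT (limma adjusted p = 1.59e-06). In RERE it was 0.41 ± 0.04, again with a peak at CT 23.1 (limma adjusted p = 2.79e-06). The amplitude was 0.03 ± 0.03 in EpiRE, as the choice of the gene implied, and 0.03 ± 0.03 in BRE (limma adjusted p = 0.807). A loss in EpiRE presupposes a rhythm in WT, so no value for WT or EpiRE here, by limma or from the authors, is an independent test. The authors' deposited table of JTK results lists q-values of 0.000394 in WT, 0.000491 in RERE and 1 in both EpiRE and BRE for this gene. For the other members called in WT below, the JTK q-values there were 0.081 (Crabp2), 0.0537 (Rarg) and 0.0613 (Dhrs9), all above 0.05. For those called in RERE, JTK lists q-values of 0.00191 for Rarg and 0.0502 for Cyp26b1.

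The difference between 2 rhythms was tested as an interaction and is given as the length of the vector between them. Beside the loss of rhythm in EpiRE against WT, known when the gene was chosen, Rdh12 was called in 3 further pairs of genotypes. Of these only BRE against RERE shares no library with EpiRE or WT. BRE differed from WT by 0.36 ± 0.05 (limma adjusted p = 5.23e-05), and from RERE by 0.38 ± 0.06 (limma adjusted p = 4.18e-05). EpiRE differed from RERE by 0.38 ± 0.06 (limma adjusted p = 0.00014), a call that was lost without replicate 2 (adjusted p = 0.0568). No difference was called between RERE and WT, at 0.02 ± 0.06 (limma adjusted p = 0.999), or between BRE and EpiRE, at 0.03 ± 0.05 (limma adjusted p = 0.961). All calls for Rdh12 held without the 6 libraries that stood apart.

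The flat course lay near the middle of the WT range in EpiRE and at or above its daily maximum in BRE. Over 24 libraries the lowest, median and highest values were 3.88, 4.48 and 4.84 in WT and 4.01, 4.55 and 4.97 in RERE. They were 4.29, 4.52 and 4.71 in EpiRE, and 4.57, 4.88 and 5.12 in BRE. Of the 24 BRE libraries, 18 exceeded the highest WT library and 23 the highest EpiRE library, while 6 exceeded the highest of RERE. With time as a factor, the level in BRE was 0.50 ± 0.05 (log2, 1.42-fold) above WT (limma adjusted p = 2.21e-10). It was 0.40 ± 0.05 above RERE (limma adjusted p = 2.33e-07) and 0.37 ± 0.03 above EpiRE (limma adjusted p = 1.23e-11). EpiRE lay 0.13 ± 0.05 above WT without passing (limma adjusted p = 0.290), as did RERE at 0.10 ± 0.04 (limma adjusted p = 0.174).

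The gap to WT depended on the time of day. In BRE, Rdh12 was 0.83 ± 0.07 (SE of the difference of 2 means of 4 libraries) above WT at CT 8 and 0.85 ± 0.08 at CT 12, but 0.19 ± 0.09 at CT 0. In EpiRE it was 0.47 ± 0.08 above WT at CT 8 and 0.53 ± 0.09 at CT 12, while at CT 0 it was 4.59 against 4.71 in WT. A flat course set against a rhythmic one stands highest above it at its low hours, so these gaps restate the loss of rhythm. Those of EpiRE come from the libraries behind the choice of Rdh12, and nothing further is read from them.

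Several markers of differentiating keratinocytes stood higher in BRE as well. Against WT, 6 of 8 suprabasal markers were called higher and 0 lower, with a median difference of 0.36, among them Krt1 at 0.36 ± 0.05 (limma adjusted p = 2.29e-08) and Ivl at 0.67 ± 0.13 (limma adjusted p = 6.07e-05). Against RERE 4 of 8 were called higher and 0 lower (median 0.21), and against EpiRE 5 of 8 and 0 (median 0.33). Of all tested genes, 12.5% were called higher in BRE and 24.4% lower against WT. The shares were 10.1% and 17.4% against RERE, and 11.1% and 22.9% against EpiRE. Ivl was 0.59 ± 0.12 above RERE (limma adjusted p = 0.000158) and 0.77 ± 0.11 above EpiRE (adjusted p = 2.29e-07). Krt1 was not called in either pair, its difference being −0.05 ± 0.05 from RERE (adjusted p = 0.465) and −0.06 ± 0.07 from EpiRE (adjusted p = 0.523). Klk7 and Lor were called in none of these pairs. Klk7 lay −0.27 ± 0.19 from WT, −0.33 ± 0.16 from RERE and 0.15 ± 0.16 from EpiRE, while Lor was 0.38 ± 0.16, 0.22 ± 0.19 and 0.34 ± 0.17 above them. The summed level of the 8 suprabasal markers ran from 10000 to 16900 RPKM in BRE (median 14100) and from 8200 to 13200 RPKM in WT (median 11300). The medians were 12500 RPKM in RERE and 12000 RPKM in EpiRE. Of 6 basal markers, 1 was called lower in BRE and 0 higher. Of the 5 tested hair follicle markers 4 were lower than in WT, and their summed levels overlapped (3350 to 4570 RPKM in BRE, 3300 to 5640 RPKM in WT). Of 4 tested, 1 was lower and 0 higher than in RERE, and 1 lower and 1 higher than in EpiRE. In EpiRE itself 2 of 5 were lower than in WT (median −0.35). Of 5 Langerhans cell markers 2 were called lower in BRE than in WT and 0 higher (median −0.34), with summed levels of 56.1 to 206 RPKM in BRE and 59.5 to 252 RPKM in WT. Against RERE and against EpiRE 0 of 5 were called. Both tested melanocyte markers of 3 listed were lower than in WT (median −0.56, summed levels 1.76 to 6.21 RPKM in BRE, 2.77 to 7.51 RPKM in WT). The 1 tested against RERE and against EpiRE was lower in both pairs. Of 4 tested T cell markers 2 were lower and 1 higher than in WT (median −0.26, summed levels 44.7 to 112 RPKM in BRE, 19.3 to 106 RPKM in WT). Against RERE 0 were lower and 1 higher, and against EpiRE 2 lower and 1 higher. Summed levels were 1.00 to 9.55 RPKM in BRE and 0.625 to 3.23 RPKM in WT for 6 fibroblast markers, none of which reached a mean of 1 RPKM. The part of these markers in the level of Rdh12 was not tested. In bulk tissue, fewer cells of a type and less RNA per cell cannot be told apart. For the rhythm, 2 of 8 suprabasal markers (Krt1 and Dsg1a) and 2 of 6 basal markers (Itgb4 and Col17a1) were called in WT. The share over all tested genes there was 33.1%. In RERE the counts were 0 of 8 and 1 of 6 (Krt14), against 19.4% of all genes. In EpiRE and BRE both counts were 0 in limma, against 0.0% and 1.14% of all genes.

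The reads of Rdh12 are largely its own: 0.499% of the 50-base windows of its transcripts occur in transcripts of another gene, and no such window was shared by its neighbour Rdh11. Rdh11 (chromosome 12, 79174337 to 79192293, minus strand, mm10) encodes a related retinaldehyde reductase. The neighbours point away from each other, with 16621 bases between their annotated starts. In WT Rdh11 was rhythmic at a similar hour, with an amplitude of 0.33 ± 0.06 and a peak at CT 21.4 (limma adjusted p = 0.00126). In RERE it had 0.25 ± 0.06 at CT 22.2 (limma adjusted p = 0.0109). In EpiRE the amplitude was 0.11 ± 0.08 (limma adjusted p = 0.753) and in BRE 0.17 ± 0.06 (limma adjusted p = 0.255), neither called. The rhythm of Rdh11 was called different in none of the 6 pairs, which does not show that its rhythms are equal. The widest gap was 0.32 ± 0.11 between EpiRE and WT (limma unadjusted p = 0.0173, limma adjusted p = 0.204). In BRE its level was 0.21 ± 0.06 above WT (limma adjusted p = 0.00754).

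Across the 24 group means, the 5 of 11027 other tested genes most like Rdh12 were Hs3st6 (Pearson r = 0.956), Arhgef10l (0.951), Otulin (0.949), Dbi (0.945) and Npas2 (0.944). These correlations describe means that share their libraries. Each of these genes had a higher mean in BRE than in WT. They were picked for likeness to Rdh12, so this and their small amplitudes in EpiRE and BRE largely follow from the choice. The values below are a description and support nothing. Npas2, a BMAL1 partner, had a mean level of 4.41 log2 RPKM in BRE, against 2.43 in WT, 2.29 in RERE and 2.55 in EpiRE. Its amplitude was 1.37 in WT and 1.55 in RERE, with 0.37 for EpiRE and 0.07 for BRE. Hs3st6, a heparan sulfate sulfotransferase gene, had amplitudes of 0.57, 0.48, 0.09 and 0.03 in that order of genotypes. Among the members, Crabp2 (r = 0.872) ranked 47th of these genes, Rarg (0.768) 192nd and Rxra (0.608) 625th, while Rdh10 had r = −0.228.

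**Figure D2:**
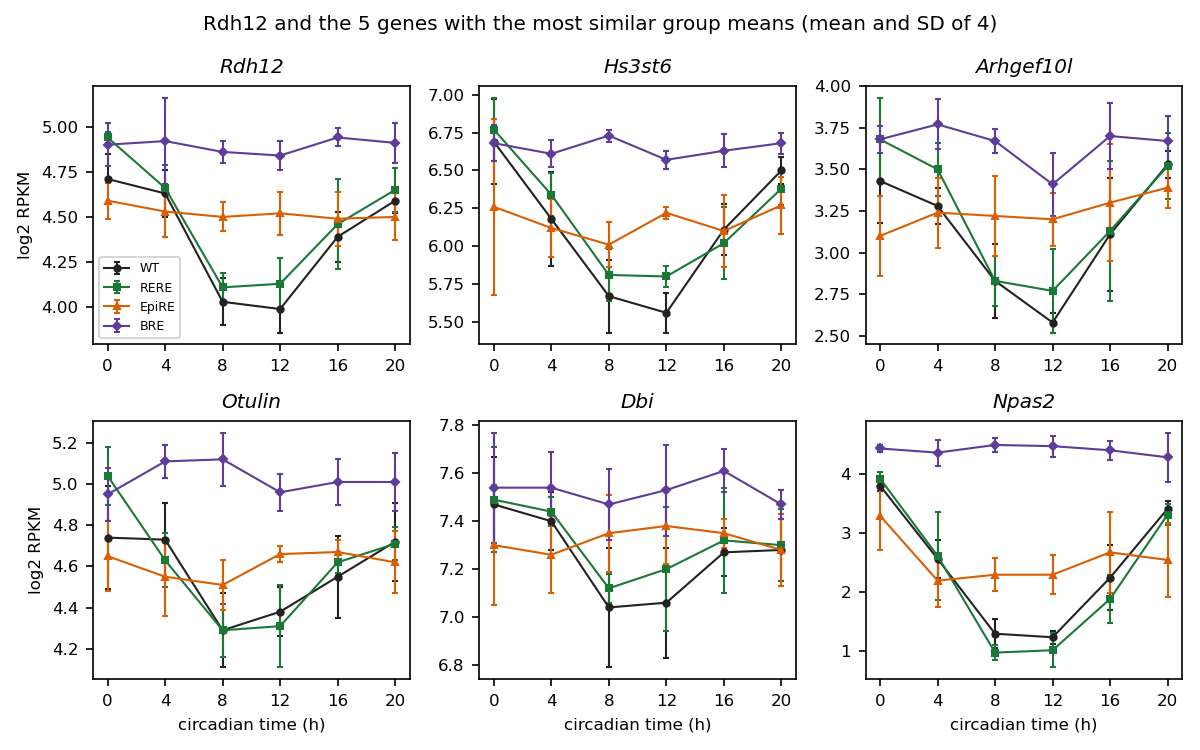
Group means of Rdh12 and of the 5 genes most like it, in log2 RPKM against circadian time in h, with the SD of 4 libraries as bars and 1 line per genotype. In each panel WT and RERE swing over the day, and BRE has the highest mean of the 4 genotypes. The 5 genes were picked for this likeness.

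The promoters of Rdh12 and of Dhrs9, the dehydrogenase described next, are shown as those of the 2 dehydrogenases among the members with a called rhythm in WT. Both are given from RefSeq on GRCm38.p6 (the same assembly as mm10), 5′ to 3′ on the plus strand, in lower case with motif matches in capitals. Of the 8 members, 6 had an entry in that promoter table. The Rdh12 run covers chr12:79208663-79208912 and the Dhrs9 run chr2:69380212-69380444, and both end before the annotated gene begins.
Rdh12: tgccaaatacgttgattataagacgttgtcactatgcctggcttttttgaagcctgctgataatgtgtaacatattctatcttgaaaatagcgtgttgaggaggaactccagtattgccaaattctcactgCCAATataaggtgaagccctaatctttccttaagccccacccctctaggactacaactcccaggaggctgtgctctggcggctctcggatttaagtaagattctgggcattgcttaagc
Dhrs9: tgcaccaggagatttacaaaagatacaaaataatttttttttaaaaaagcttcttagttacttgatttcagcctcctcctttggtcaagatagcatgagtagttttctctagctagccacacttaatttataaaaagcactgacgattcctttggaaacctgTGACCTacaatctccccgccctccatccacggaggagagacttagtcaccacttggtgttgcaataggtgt
Motifs were searched on both strands in the 250 bases before the start. They were the E-box CACGTG, its variant CACGTT, the D-box TTATGTAA, its variant TTACGTAA, the nuclear receptor core motif AGGTCA and CCAAT, none containing another. A direct repeat of AGGTCA with 5 bases between, which does contain AGGTCA, was searched as well. In Rdh12 the only match was CCAAT, starting at base 132 of the run, a motif found in 33.8% of all 32851 promoter entries. In Dhrs9 it was AGGTCA on the minus strand (TGACCT as printed), starting at base 163, found in 14% of them. CACGTG was found in 6.02% of entries, CACGTT in 3.85%, TTATGTAA in 0.819%, TTACGTAA in 0.113% and the direct repeat in 0.00913%. A match is a string of letters, and its absence says only that these letters are not in this window.

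Dhrs9 (ENSMUSG00000027068, chromosome 2, 69380445 to 69404533, plus strand, mm10) encodes a dehydrogenase with retinol as a substrate. It was scarce, and it was higher in the second part of the cycle in every genotype. At CT 8 the libraries read −0.68, 0.08, −1.82 and −2.16 log2 RPKM in WT, and at CT 20 they read −0.16, 0.66, −0.46 and −0.47. In BRE they read −1.48, −0.48, 0.08 and −1.80 at CT 8, and 0.29, 0.69, 0.68 and 0.99 at CT 20. These times overlapped in WT and did not in BRE. In RERE the values at CT 8 were −1.96, −2.0, −0.89 and −0.80, and at CT 20 −0.48, −0.05, 0.05 and 0.42. In EpiRE they were −3.41, −1.56, −0.15 and −0.17 at CT 8, and 0.15, 0.59, −0.32 and −0.45 at CT 20. RERE showed no overlap between these times and EpiRE did.

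The fitted wave of Dhrs9 had about the same size and hour in all 4 genotypes. The amplitude was 0.79 ± 0.20 with a peak at CT 16.8 in WT (limma adjusted p = 0.0227), 0.68 ± 0.20 at CT 17.7 in RERE (adjusted p = 0.0632), 0.69 ± 0.21 at CT 17.3 in EpiRE (adjusted p = 0.388) and 0.72 ± 0.18 at CT 16.9 in BRE (adjusted p = 0.122). With no minimum level, 17.9% of all genes were called rhythmic in WT and 10.1% in RERE, while EpiRE had 0.0% and BRE 0.292%. Only WT passed for Dhrs9, and that call was lost with time as a factor in place of the wave and without replicate 2, 3 or 4 (highest adjusted p = 0.125). RERE passed with the replicate block (adjusted p = 0.0452) and without the libraries that stood apart (adjusted p = 0.00505). The difference in rhythm between genotypes was at most 0.20 ± 0.30, and none of the 6 pairs was called (limma adjusted p = 1 in each). With no minimum level the rhythm differed for 0.434% of all genes between EpiRE and WT, 2.36% between BRE and WT, 0.349% between EpiRE and RERE, 1.65% between BRE and RERE and 0.0% in the remaining pairs. That does not show that the rhythms are equal.

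A single wave fitted to all 96 libraries with the genotypes' means removed, chosen after these values were seen, gave Dhrs9 an amplitude of 0.72 ± 0.10 (2.71-fold from trough to peak) at CT 17.1 ± 0.54 h (limma adjusted p = 1.95e-07). It was called under each of the 10 alternatives run for it. With no minimum level, 26.3% of all genes were called in that fit. The same fit, which averages over the genotypes, gave Rdh12 an amplitude of 0.21 ± 0.03.

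**Figure D3:**
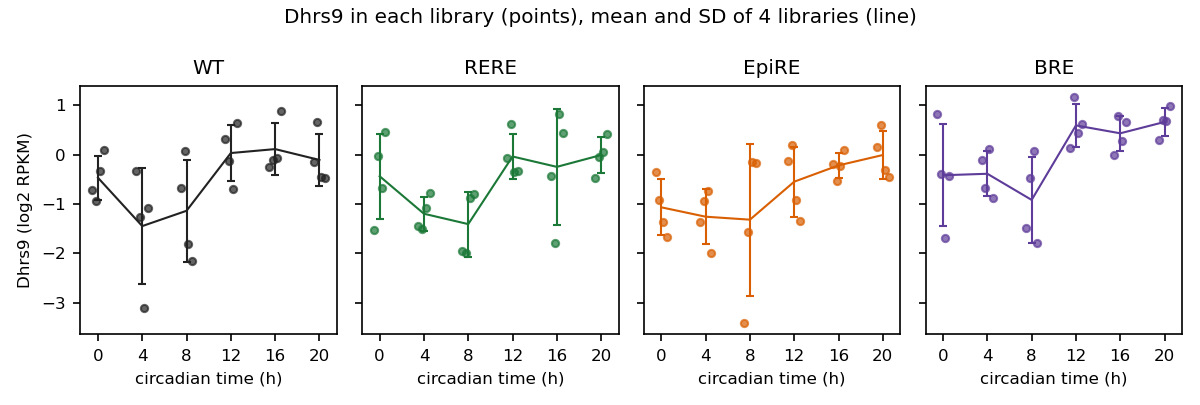
Dhrs9 in log2 RPKM against circadian time in h, 1 panel per genotype, with single libraries as points and the mean and SD of 4 as a line. In all 4 panels the mean is lowest at CT 4 or CT 8 and highest at CT 16 or CT 20.

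The level of Dhrs9 was higher in BRE. Its lowest, median and highest values were −1.80, 0.12 and 1.16 log2 RPKM in BRE and −3.10, −0.33 and 0.88 in WT, so that the genotypes overlapped. BRE lay 0.73 ± 0.20 above EpiRE (limma adjusted p = 0.00258), 0.55 ± 0.19 above RERE (adjusted p = 0.0183) and 0.49 ± 0.20 above WT (adjusted p = 0.0433). Without the libraries that stood apart the differences from RERE (0.41, adjusted p = 0.0689) and WT (0.48, adjusted p = 0.0579) no longer passed. The call against WT was lost under 6 of 11 alternatives (highest adjusted p = 0.24) and that against RERE also without replicate 1 or 2 (highest adjusted p = 0.169). With no minimum level, 35.2% of genes were called between BRE and EpiRE, 32.0% between BRE and RERE and 37.7% between BRE and WT. In such fits genes without reads add calls, since each genotype's table lists them at its own floor.

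Rdh10 (ENSMUSG00000025921, chromosome 1, 16105774 to 16133734, plus strand, mm10) encodes the retinol dehydrogenase known for retinoic acid synthesis in the embryo. It was not called rhythmic in any genotype. Its largest amplitude was 0.14 ± 0.05 in RERE, with a peak at CT 16.5 (limma adjusted p = 0.112), and its median was 2.19 log2 RPKM in WT and 2.14 in BRE. In the wave over all libraries it reached 0.08 ± 0.03 at CT 16.5 (limma adjusted p = 0.0341), a call lost under 6 of 12 alternatives. Among these was the fit without the libraries that stood apart (0.07, limma adjusted p = 0.0509). In that fit its peak lay beside that of Dhrs9 (CT 17.1), and no test compared the 2 genes.

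**Figure D4:**
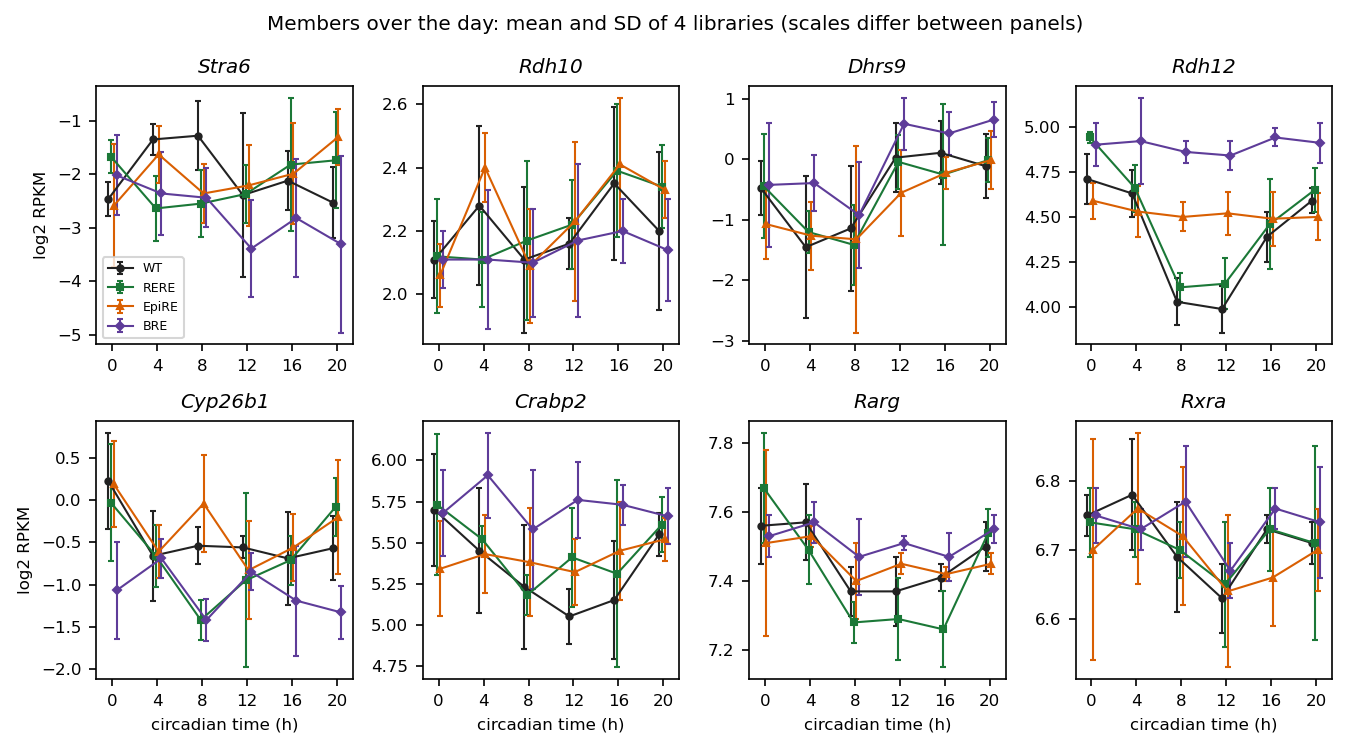
All 8 members in log2 RPKM against circadian time in h, as mean and SD of 4 libraries per point and 1 line per genotype. The vertical scale differs between panels. Rdh12, Crabp2 and Rarg have their lowest mean between CT 8 and CT 16 in WT and RERE, and Dhrs9 has its highest at CT 12 to CT 20 in all genotypes.

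Stra6 and Cyp26b1 stand at the entry and the exit of the pathway. Stra6 (ENSMUSG00000032327, chromosome 9, 58063788 to 58153996, plus strand, mm10) encodes the membrane receptor that takes up retinol from its carrier in blood. Cyp26b1 (ENSMUSG00000063415, chromosome 6, 84571414 to 84593908, minus strand, mm10) encodes an enzyme that degrades retinoic acid. Both were lower in BRE. The lowest, median and highest Cyp26b1 values were −1.80, −1.06 and −0.36 log2 RPKM in BRE, and −1.38, −0.45 and 0.96 in WT. Of the 24 BRE libraries 6 lay below the lowest WT library and 0 above the highest. BRE lay −0.63 ± 0.13 (0.648-fold) from WT (limma adjusted p = 9.48e-05), −0.75 ± 0.15 from EpiRE (adjusted p = 7e-05) and −0.45 ± 0.16 from RERE (adjusted p = 0.0226). The difference from RERE did not pass under median-of-ratios scaling or without replicate 1, 2 or 4 (highest adjusted p = 0.102), while the other 2 passed under all 11 alternatives.

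For Stra6 the lowest, median and highest values were −5.75, −2.61 and −1.10 log2 RPKM in BRE, and −4.40, −2.07 and −0.46 in WT. The difference was −0.70 ± 0.26 from WT (limma adjusted p = 0.0282), −0.71 ± 0.27 from EpiRE (adjusted p = 0.0388) and −0.59 ± 0.26 from RERE (adjusted p = 0.0835). The first was lost without replicate 2 or 4, and the second under 5 of 11 alternatives. With as little as 1 read behind a value, Stra6 is the least precise of the members.

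Within single genotypes, rhythm in these 2 genes was called once. Cyp26b1 had an amplitude of 0.65 ± 0.16 at CT 21.7 in RERE (limma adjusted p = 0.020), where at CT 8 the libraries read −1.42, −1.24, −1.27 and −1.76, and at CT 20 −0.23, 0.32, 0.02 and −0.46. These times did not overlap. The call was lost with time as a factor and without replicate 1, 2 or 3 (highest adjusted p = 0.238). The amplitude was 0.26 ± 0.14 in WT, 0.31 ± 0.16 in EpiRE and 0.12 ± 0.14 in BRE, none of them called, and no pair of genotypes differed by the test. Stra6 peaked at CT 6.69 in WT with an amplitude of 0.59 ± 0.23 and at CT 19.8 in RERE with 0.52 ± 0.21. Neither passed (limma adjusted p = 0.152 and 0.235), and nor did their difference of 1.10 ± 0.31 (unadjusted p = 0.00383, limma adjusted p = 0.666).

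Crabp2 (ENSMUSG00000004885, chromosome 3, 87948666 to 87953376, plus strand, mm10) encodes the binding protein that carries retinoic acid to its nuclear receptor. Its course resembled that of Rdh12 with a wider spread. The WT libraries read 5.61, 6.19, 5.43 and 5.57 log2 RPKM at CT 0, and 4.98, 4.95, 5.30 and 4.97 at CT 12, without overlap. The amplitude was 0.32 ± 0.08 at CT 23.9 in WT (limma adjusted p = 0.0101), lost with time as a factor and without replicate 1 or 4 (highest adjusted p = 0.0953). It was 0.22 ± 0.09 at CT 22.9 in RERE (adjusted p = 0.143), which passed without the libraries that stood apart (adjusted p = 0.0157). In EpiRE it was 0.05 ± 0.07 and in BRE 0.04 ± 0.07. The difference of the EpiRE rhythm from WT was 0.30 ± 0.11 and that of BRE was 0.30 ± 0.11, neither of which passed (limma adjusted p = 0.237 and 0.179).

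In BRE, Crabp2 was higher than in each other genotype. Its lowest, median and highest values were 5.12, 5.69 and 6.18 log2 RPKM in BRE, against 4.74, 5.46 and 6.19 in WT and 5.03, 5.41 and 5.81 in EpiRE. The ranges overlapped. BRE lay 0.36 ± 0.08 (1.29-fold) above WT (limma adjusted p = 0.000504), 0.31 ± 0.07 above EpiRE (adjusted p = 0.000389) and 0.26 ± 0.08 above RERE (adjusted p = 0.0141). The last was lost without replicate 1 or 2 (highest adjusted p = 0.101). Suprabasal markers were higher in the same libraries by the counts given beside Rdh12, and their part was not tested here either.

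Rarg (ENSMUSG00000001288, chromosome 15, 102234938 to 102257517, minus strand, mm10) encodes RAR gamma, the main retinoic acid receptor of epidermis. Its rhythm was small and precisely measured. The RERE libraries read 7.55, 7.67, 7.90 and 7.57 log2 RPKM at CT 0, and 7.13, 7.22, 7.32 and 7.37 at CT 16, without overlap. In WT they read 7.63, 7.66, 7.55 and 7.41 at CT 0, and 7.37, 7.34, 7.29 and 7.46 at CT 8, where 1 library of each time overlapped. The amplitude was 0.21 ± 0.03 at CT 23.8 in RERE (limma adjusted p = 0.000351) and 0.11 ± 0.03 at CT 0.278 in WT (adjusted p = 0.00887). The WT call was lost with time as a factor and without replicate 2 (highest adjusted p = 0.0711). In EpiRE the amplitude was 0.05 ± 0.03 and in BRE 0.04 ± 0.02, neither called.

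The rhythm of Rarg differed between BRE and RERE by 0.17 ± 0.04 (limma adjusted p = 0.0101). With time as a factor, or without replicate 2, 3 or 4, this difference did not pass (highest adjusted p = 0.104). Between EpiRE and RERE it was also 0.17, with an SE of 0.05, and was not called (limma adjusted p = 0.148) except with a spread shared over 96 libraries (adjusted p = 0.029). The level in BRE was 0.09 ± 0.03 above RERE (limma adjusted p = 0.0231), a call lost without the libraries that stood apart (0.08, adjusted p = 0.0562) and without replicate 1, 2 or 4 (highest adjusted p = 0.156). Against WT it was 0.05 ± 0.02 (adjusted p = 0.0747).

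Rarg has 2 entries in the promoter table, and the one inside the gene is shown because it alone among the members' windows held the CACGTT variant. It covers chr15:102246501-102246750 on GRCm38.p6, lies in an intron of Rarg, and is printed 5′ to 3′ on the minus strand with the match in capitals.
Rarg: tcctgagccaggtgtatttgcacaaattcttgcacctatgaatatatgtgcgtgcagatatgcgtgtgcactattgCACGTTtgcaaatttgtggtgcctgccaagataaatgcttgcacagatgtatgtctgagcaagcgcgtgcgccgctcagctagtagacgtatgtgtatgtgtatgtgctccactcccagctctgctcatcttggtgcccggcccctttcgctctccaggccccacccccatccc
The match starts at base 77 of the run. Which of the 2 starts the counted reads came from was not measured.

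Rxra (ENSMUSG00000015846, chromosome 2, 27676440 to 27762957, plus strand, mm10) encodes the RXR partner of these receptors. Its lowest, median and highest values were 6.56, 6.72 and 6.88 log2 RPKM in WT, 6.51, 6.73 and 6.84 in RERE, 6.51, 6.71 and 6.85 in EpiRE, and 6.62, 6.74 and 6.85 in BRE. All 4 ranges overlapped almost fully. It was called rhythmic in no genotype, the largest amplitude being 0.05 ± 0.02 in WT (limma adjusted p = 0.139). Its level in BRE was 0.02 ± 0.02 from WT, 0.03 ± 0.02 from RERE and 0.04 ± 0.02 from EpiRE, none of them called.

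**Figure D5:**
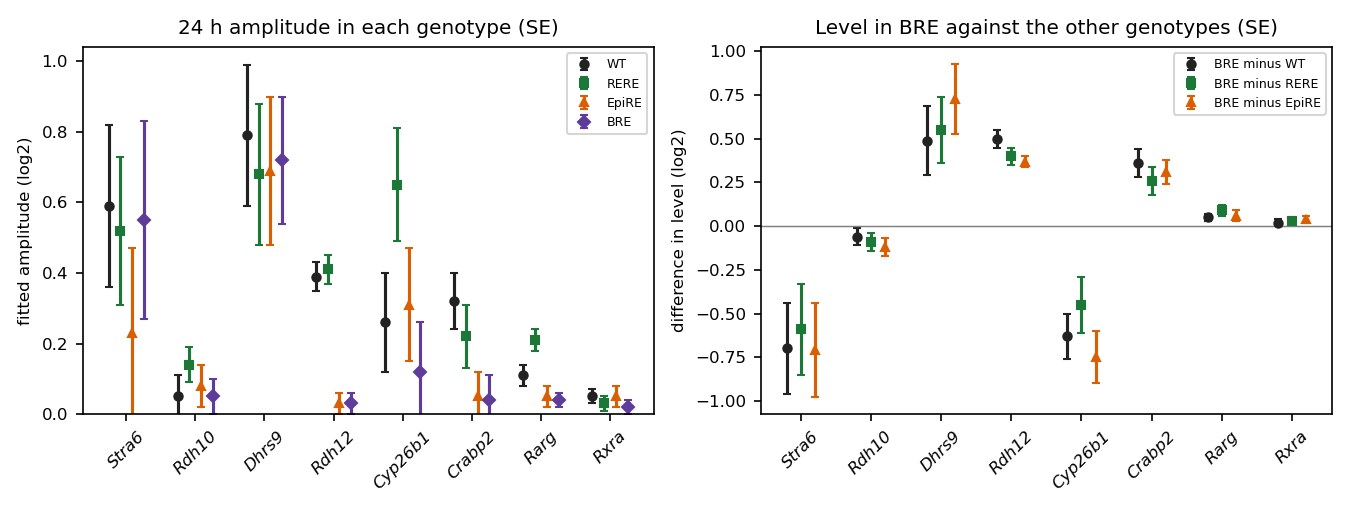
Left, the fitted 24 h amplitude of each member in log2 units with its SE in 4 genotypes, with bars ended at 0. Right, the level in BRE minus that in each other genotype with its SE. Rdh12 is near 0.4 in WT and RERE and at 0.03 in EpiRE and BRE, Dhrs9 is between 0.68 and 0.79 in all 4, and on the right Rdh12, Crabp2 and Dhrs9 lie above 0 while Cyp26b1 and Stra6 lie below it.

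Counted together, 3 of the 5 members above the minimum were called rhythmic in WT, where 33.1% of all tested genes were, and 2 of 5 in RERE, where 19.4% were. The WT count includes Rdh12, whose choice presupposed its rhythm there. In EpiRE and BRE the count was 0 of 5, against 0.0% and 1.14% of all genes. None of the 5 had an unadjusted limma p under 0.05 there, and limma-voom on recovered reads called 0 as well. The median amplitude of the 5 was 0.11 in WT and 0.21 in RERE, against 0.12 and 0.10 over all genes. Between EpiRE and WT the rhythm differed for 1 of 5 (1.57% of all genes), which is Rdh12 and was fixed by its choice, so nothing is read from that count. It differed for 1 of 5 between BRE and WT (5.69%), 1 of 5 between EpiRE and RERE (1.05%) and 2 of 5 between BRE and RERE (4.19%). It was called for 0 of 5 between RERE and WT and between BRE and EpiRE (0.0% of all genes in both, limma and limma-voom calling 0 of 5, with 0 at an unadjusted p under 0.05). These pairs share libraries, so their counts are not independent. Rdh12 is the 1 gene of BRE against WT and of EpiRE against RERE, and 1 of the 2 of BRE against RERE. BRE against WT and EpiRE against RERE reuse the WT or EpiRE libraries behind its choice, so nothing is read from their counts. In the wave over all libraries 5 of 5 were called, as were 52.2% of all genes.

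The level differed between BRE and WT for 2 of the 5 members, against 36.9% of all genes. It did for 3 of 5 between BRE and RERE (27.5%) and for 2 of 5 between BRE and EpiRE (34.0%). All of these calls were higher in BRE, as were 12.5%, 10.1% and 11.1% of all genes. The split of all genes' calls depends on the scaling: between BRE and WT 34.0% of the called genes were higher as deposited and 51.0% with median-of-ratios scaling. With that scaling 4 of 5 members were called higher in BRE against WT and against EpiRE, Rarg and Rxra being added with differences of 0.05 to 0.09. Between RERE and WT (2.14% of all genes), EpiRE and WT (2.23%) and EpiRE and RERE (0.00906%), limma and limma-voom called 0 of 5. At an unadjusted limma p under 0.05 the counts were 1, 1 and 0.

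A wider list of 35 other retinoid genes was read in the same fits, and 19 of them passed the minimum level. In WT 4 of 19 were rhythmic, against 33.1% of all genes. They were Rdh11, Aldh1a1, Sdr16c5 and Adh7. Aldh1a1, a retinaldehyde dehydrogenase that makes retinoic acid, had the widest wave of the 4, with 0.48 ± 0.10 at CT 2.99 (limma adjusted p = 0.0033). Adh7, an alcohol dehydrogenase that accepts retinol, peaked at CT 11.3 in WT (0.19 ± 0.05, limma adjusted p = 0.0196) and at CT 14.5 in RERE (0.36 ± 0.06, limma adjusted p = 0.00112), far from the hour of Rdh12. In RERE 4 of 19 were called, against 19.4% of all genes. They were Adh7, Rdh11, Dgat1 and Dhrs3. In EpiRE and BRE limma called 0 of 19, and in all 6 pairs of genotypes it called 0 of 19 as different in rhythm. At an unadjusted p under 0.05 limma had 1 of 19 in EpiRE, 2 of 19 in BRE and 0 to 2 of 19 in the pairs, and limma-voom called 0 in each.

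In level, 12 of 19 were called between BRE and WT, against 36.9% of all genes. Of the 19, 7 were higher and 5 lower, where 12.5% and 24.4% of all genes were. The receptors Rara (−0.25 ± 0.04, limma adjusted p = 2.81e-07) and Rxrb (−0.14 ± 0.03, adjusted p = 0.000385) were lower. The retinol dehydrogenases Sdr16c5 (0.29 ± 0.04, adjusted p = 1.03e-06), Sdr16c6 (0.34 ± 0.08, adjusted p = 0.000895) and Rdh9 (0.32 ± 0.09, adjusted p = 0.00473) were higher. These 5 genes had the smallest adjusted p, and the dehydrogenases were not uniform. Rdh13, listed in the same class, was called lower (−0.11 ± 0.03, limma adjusted p = 0.0052). Rdh9 belongs to a cluster of similar genes among which reads can be split, so its value is uncertain. Rara and Rxrb were also lower than in RERE, by −0.13 ± 0.04 (limma adjusted p = 0.00884) and −0.14 ± 0.03 (adjusted p = 0.000295). In that pair 4 of 19 were called (27.5% of all genes), 0 higher and 4 lower, where 10.1% and 17.4% of all genes were. Between BRE and EpiRE it was 6 of 19 (34.0% of all genes), 4 higher and 2 lower, where 11.1% and 22.9% were. Sdr16c5 and Adh7 were higher than in WT in each of the other 3 genotypes, which are compared with the same WT libraries. Sdr16c5 was 0.31 ± 0.06 higher in RERE (limma adjusted p = 0.00263) and 0.24 ± 0.05 in EpiRE (adjusted p = 0.00401), and Adh7 was 0.25 ± 0.06 higher in RERE (adjusted p = 0.0242) and 0.28 ± 0.06 in EpiRE (adjusted p = 0.00232). With Adh1 they were the 3 of 19 called between RERE and WT (2.14% of all genes). Between EpiRE and WT, Sdr16c5 and Adh7 were the 2 of 19 called (2.23% of all genes).

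Whether a member followed the state of the clock in single libraries was tested within each time. The state was read from 14 clock genes, turned into the value that the WT course of the member gives for that state, and compared with the measured value after both had lost their time means. Over 24 libraries, Rdh12 had r = 0.609 and Spearman rho = 0.660 in WT (permutation p = 0.00716 and 0.00308), and r = 0.619 and rho = 0.521 in RERE (permutation p = 0.00678 and 0.0462). It had r = 0.437 and rho = 0.417 in EpiRE (permutation p = 0.0678 and 0.0864), and r = 0.0852 and rho = 0.0856 in BRE (permutation p = 0.688 and 0.713). The magnitude of the state ran from 0.787 to 1.464 in WT libraries and from 0.691 to 1.473 in RERE. It ran only from 0.048 to 1.04 in EpiRE and from 0.052 to 0.653 in BRE. With so small a state there is little to follow, so the low r in BRE does not show that Rdh12 is uncoupled from the clock. Adjusted over the 20 relations of 5 members in 4 genotypes, the p for r was 0.05 for Rdh12 in WT and in RERE and for Crabp2 in RERE (r = 0.405, rho = 0.455, permutation p = 0.0075 and 0.0494), which is at the threshold. For rho the smallest adjusted p was 0.0616. Without the 2 libraries farthest from the median state, r for Rdh12 was 0.575 in WT and 0.627 in RERE, and no relation passed the adjustment.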

How the data were processed

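The values are log2 RPKM, deposited by the authors in 1 table per genotype, per the file headers. The submitters' processing notes name featureCounts 1.6.0, edgeR, HISAT2 2.2.1, Trimmomatic 0.36, SAMtools 1.3.1 and the mm10 build. Per the labels' protocols the kit keeps strand and adds molecular identifiers; whether counting used either is not stated. Deposited q-values of JTK were copied, not recomputed, and 96 value columns of the JTK tables, whose codes match no label, were not used. Their codes run in order in WT and RERE only, so the CT of EpiRE and BRE rests on the column names of the tables used. The fitted hours given for EpiRE and BRE rest on those names too.

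Members and lists were chosen with earlier results of these data known. In each fit, genes whose libraries averaged 0 log2 RPKM or more were tested in limma 3.58.1 (R 4.3.3, moderated tests with a mean-dependent prior), with cosine and sine terms of 24 h for rhythm and time as a factor for level. Relations to the clock state used 100000 permutations within each time, two-sided. Fits were tested on simulated data. All members are named. Of the 35 listed pathway genes, at most 5 called in a comparison with the smallest adjusted p are named, with Rdh13 added for level. For Rdh12 the 5 genes with the highest Pearson r are named. Rdh11, the neighbour of Rdh12, was added after its values were seen.

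Whole reads were recovered from the values for 22472 of 22497 genes (99.9994% of values within 0.1 read), which gave library sizes and the limma-voom alternative. Gene positions are from GENCODE M21 and promoters from RefSeq GRCm38.p6. Alternatives were a replicate block, leaving out each replicate number, other minimum levels, a pseudocount of 1 RPKM, median-of-ratios scaling, limma-voom, a spread shared over 96 libraries and time as a factor (for level, a wave). The wave over all libraries and the fits without 6 libraries were added after seeing the data.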

Additional observations from a re-analysis of the deposited data

Results flagged for a closer look

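In 5 comparisons the rhythm of a member differed between genotypes by the interaction test in limma. For Rdh12 the adjusted p was 0.000206 for EpiRE against WT, a loss of rhythm that was known when the gene was chosen, so that this p is no independent test. It was 5.23e-05 for BRE against WT, 0.00014 for EpiRE against RERE and 4.18e-05 for BRE against RERE. BRE against WT and EpiRE against RERE reuse the WT or EpiRE libraries behind the choice, so they are no independent tests either. The call for EpiRE against RERE was lost without replicate 2 (limma adjusted p = 0.0568). For Rarg it was 0.0101 for BRE against RERE.

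Single libraries stood far from the other 3 of their time in 10 of 192 groups of 4, where chance gives about 5%. In WT these were Rdh12 at CT 12 (4.18 log2 RPKM in replicate 2, the others 3.91 to 3.94), Dhrs9 at CT 16 (0.88 in replicate 4, the others −0.25 to −0.08) and Crabp2 at CT 12 (5.30 in replicate 3, the others 4.95 to 4.98). In EpiRE they were Crabp2 at CT 4 (5.79 in replicate 2, the others 5.28 to 5.35) and at CT 12 (5.62 in replicate 2, the others 5.18 to 5.24), and Stra6 at CT 12 (−3.34 in replicate 4, the others −1.96 to −1.75) and at CT 20 (−2.08 in replicate 4, the others −1.10 to −0.95). In RERE they were Stra6 at CT 12 (−3.19 in replicate 3, the others −2.19 to −2.03) and at CT 20 (−0.39 in replicate 4, the others −2.28 to −2.09). In BRE it was Rxra at CT 4 (6.68 in replicate 1, the others at 6.74).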

How the results depend on the processing

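Of the calls for Rdh12, all kept their direction and side of the threshold under each alternative except the rhythm of EpiRE against RERE without replicate 2. Of 1798 alternative values of single members 31 had the opposite sign, and 0 of these belonged to a called result. The counts below are of the 5 members above the minimum level. With time as a factor, 1 was called rhythmic in WT (3 with the wave) and 1 differed in rhythm between BRE and RERE (2 with the wave). With a spread shared over 96 libraries, 2 differed in rhythm between EpiRE and RERE in place of 1. With median-of-ratios scaling, 4 differed in level between BRE and WT and 4 between BRE and EpiRE, in place of 2 each. Leaving out each replicate number gave 2 to 5 in the wave over all libraries (5 with all), 1 to 2 for the rhythm of BRE against RERE, 0 to 1 for that of EpiRE against RERE, and 1 to 3 for the level of BRE against RERE. Of the 20 relations to the clock state 3 were at the threshold; 0 passed with the PAR bZIP genes Dbp, Tef and Hlf left out of the state, 0 without the 2 libraries farthest from the median, and 0 to 2 without each replicate number. In all of these the cause was not tested.

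Equal replicate numbers share no origin in the labels, and deviations of same-numbered libraries of a time correlated with a mean of 0.0197 (44 of 144 pairs over 0.1); 29 of 96 libraries correlated best with their own number. The replicate block left the count of members called at 3 in WT, 2 in RERE and 0 in EpiRE and BRE, and that of all genes at 3566 in WT (3675 without the block) and 41 in BRE (125 without it). Depth limits Stra6 and Dhrs9 most, with as few as 1 and 4 reads in a library. All genes called rhythmic fell to 2019 in WT without replicate 4 and to 875 in RERE without replicate 3.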
